A study of Mus musculus with 7 samples.

Results

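Chemokines are small secreted proteins that guide leukocytes into injured tissue, and chemokine receptors are the membrane proteins through which cells sense them. The genes described here are the protein-coding genes whose symbol is Ccl, Cxcl, Xcl, Cx3cl, Ccr, Cxcr, Xcr or Ackr followed directly by a number. There were 59 such genes among the 21965 in the table, 37 ligands and 22 receptors, and the 39 with a mean count of at least 10 over all libraries (26 ligands and 13 receptors) are reported with values. The threshold passed between Cxcl13 (mean count 10.6) and Cxcl3 (10.7) on the inside and Ccr9 (9.6) and Ccl17 (8.9) on the outside.

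RNASeq was made at dpi 3 from a 5 mm segment of contused spinal cord centered on the injury epicenter. There was 1 library per mouse, from 3 mice labelled Bmal1-/- (called mutant-labelled libraries) and 4 WT mice. All mice received a T9 contusion of 50 kdyn force with 400 to 600 µm displacement, so no uninjured cord enters the comparison and injury itself was not tested. The mutants are germline knockouts of Arntl, the gene for the circadian activator BMAL1, on C57BL/6 (B6.129-Arntltm1Bra/J), so the allele is present in every cell type, and the WT mice are C57BL/6 (C57Bl/6J in the methods of the study), of which 1 was a littermate of the mutants and the others were not bred with them. All mice were young adults killed in the same circadian window, and both sexes were present in each genotype (2 females and 1 male labelled Bmal1-/-, 2 females and 2 males WT). The question was which transcripts differ between the genotypes in the acutely injured cord.

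Ligands fall into classes by the spacing of the first cysteines of the mature protein, adjacent in CC chemokines, separated by a single residue in CXC chemokines and by a stretch of residues in CX3CL1. CC ligands such as CCL2 act mainly on monocytes, macrophages, eosinophils and lymphocytes, whereas the CXC ligands of CXCR2 attract neutrophils. Signalling receptors couple to inhibitory G proteins, and atypical receptors (Ackr) bind chemokines without that coupling and remove or transport them. In the contused cord, chemokines are made by glia, endothelial cells (EC), fibroblasts and the infiltrating leukocytes themselves.

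The class-defining codons of the ligands on which the results turn are shown so that the genes can be identified by sequence. Each line gives the sense strand of coding exons in the annotated GRCm38 transcript of GENCODE M21, 5′ to 3′, with the 5 codons on either side, and capitals mark the cysteine codons.
Ccl24: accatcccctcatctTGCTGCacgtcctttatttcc
Ccl11: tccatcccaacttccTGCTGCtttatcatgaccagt
Ccl2: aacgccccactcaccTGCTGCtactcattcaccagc
Ccl7: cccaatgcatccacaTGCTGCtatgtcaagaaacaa
Ccl6: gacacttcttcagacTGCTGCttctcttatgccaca
Ccl9: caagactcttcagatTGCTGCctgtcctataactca
Ccl28: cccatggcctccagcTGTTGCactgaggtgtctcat
Cxcl12: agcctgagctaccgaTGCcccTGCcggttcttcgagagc
Cxcl14: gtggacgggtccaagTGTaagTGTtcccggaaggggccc
Cx3cl1: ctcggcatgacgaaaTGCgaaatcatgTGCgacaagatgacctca
All 16 CC ligands, all 9 CXC ligands and Cx3cl1 held the spacing of their class between codons 16 and 70. The classes are defined by this spacing, so the match serves to identify the genes and is not a finding. Among 21584 coding genes of the annotation, 4.42% held the CC spacing, 4.23% the CXC spacing and 4.73% the CX3C spacing in that window. These shares used the longest coding sequence of each gene, whereas any transcript of a ligand could supply its match.

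Before any comparison, a single library stood apart. WT replicate 3 had the highest CPM (counts scaled to library size with TMM factors) for 29 of the 39 genes, while Bmal1-/- replicate 3 had the lowest for 16. The summed CPM of the 39 genes was 554, 551 and 535 in mutant-labelled libraries and 624, 602, 911 and 621 in WT. In WT replicate 3 the summed CPM of 17 monocyte and macrophage markers was 15578 against 7158 to 10487 in the other libraries, and that of 13 neuron markers was 2769 against 4735 to 7813. Values are listed in order of replicate number, and many fold changes are given with and without this library. It was singled out by its values for these same genes, so adjusted p-values without it describe that fit and do not support a call.

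Markers of spinal cord were present in every library, with summed CPM of 11218 to 19063 for 11 astrocyte markers and 24706 to 36009 for 10 oligodendrocyte markers, so the labelled tissue was found. Total counts ran from 38529644 to 44096737. Arntl was counted at 22.5 to 24.2 CPM in mutant-labelled libraries and 11.9 to 15.3 CPM in WT, in the direction opposite to the label. The higher Arntl count was called (edgeR adjusted p = 0.0155). The whole-gene count includes exons outside the deleted part, so it does not check the genotype. By qPCR the study could not detect Bmal1 mRNA in contused Bmal1-/- cord at dpi 3. The group is called by its label throughout. Skeletal muscle markers, which do not belong to cord, summed to 8.03 to 9.54 CPM in mutant-labelled libraries and 58.7 to 80.0 CPM in WT, with 9 of 10 called lower. Red cell markers summed to 27.4 to 63.1 CPM and 154 to 470 CPM respectively, with 7 of 7 below WT without overlap and 1 of 7 called. The part of muscle, blood and cell makeup in the chemokine results was not tested, and in bulk tissue fewer cells of a type and less RNA per cell cannot be told apart.

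Across the 37 genes that passed the filter on low counts (Cxcl3 and Ccl19 did not), 1 was called, Ccl24, which was lower in the mutant-labelled libraries, and none was called higher (edgeR's quasi-likelihood test, Benjamini-Hochberg adjusted p under 0.05). Over all 15743 genes tested, 1.57% were called, 0.915% lower and 0.654% higher. At an unadjusted p under 0.05, 13 chemokine genes lay lower and 1 higher, 35.1% and 2.70% of the 37, against 12.2% and 8.64% of all genes (20.9% in either direction). The genotypes did not overlap for 11 genes on the lower side and 2 on the higher side (29.7% and 5.41%), where all genes gave 13.5% and 13.4%.

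The fitted log2 fold change (mutant-labelled libraries relative to WT) was below 0 for 28 of 37 genes, with a median of -0.52, against 51.1% of all genes and a median of -0.0057. Without WT replicate 3 it was below 0 for 25 of 37, with a median of -0.29, against 50.5% of all genes. In that fit 8 genes were called lower and none higher, Ackr4, Ccl11, Ccl2, Ccl24, Ccl6, Ccl7, Ccl9 and Cxcl12. Of all genes, 4.66% were called there, 2.80% lower and 1.86% higher. Leaving out any other library gave no call among the chemokine genes, apart from Ccl24 without WT replicate 4. DESeq2 on all 7 libraries called the same 8 lower and Ccl28 higher, and called 9.14% of all genes, 5.63% lower and 3.51% higher.

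**Figure D1:**
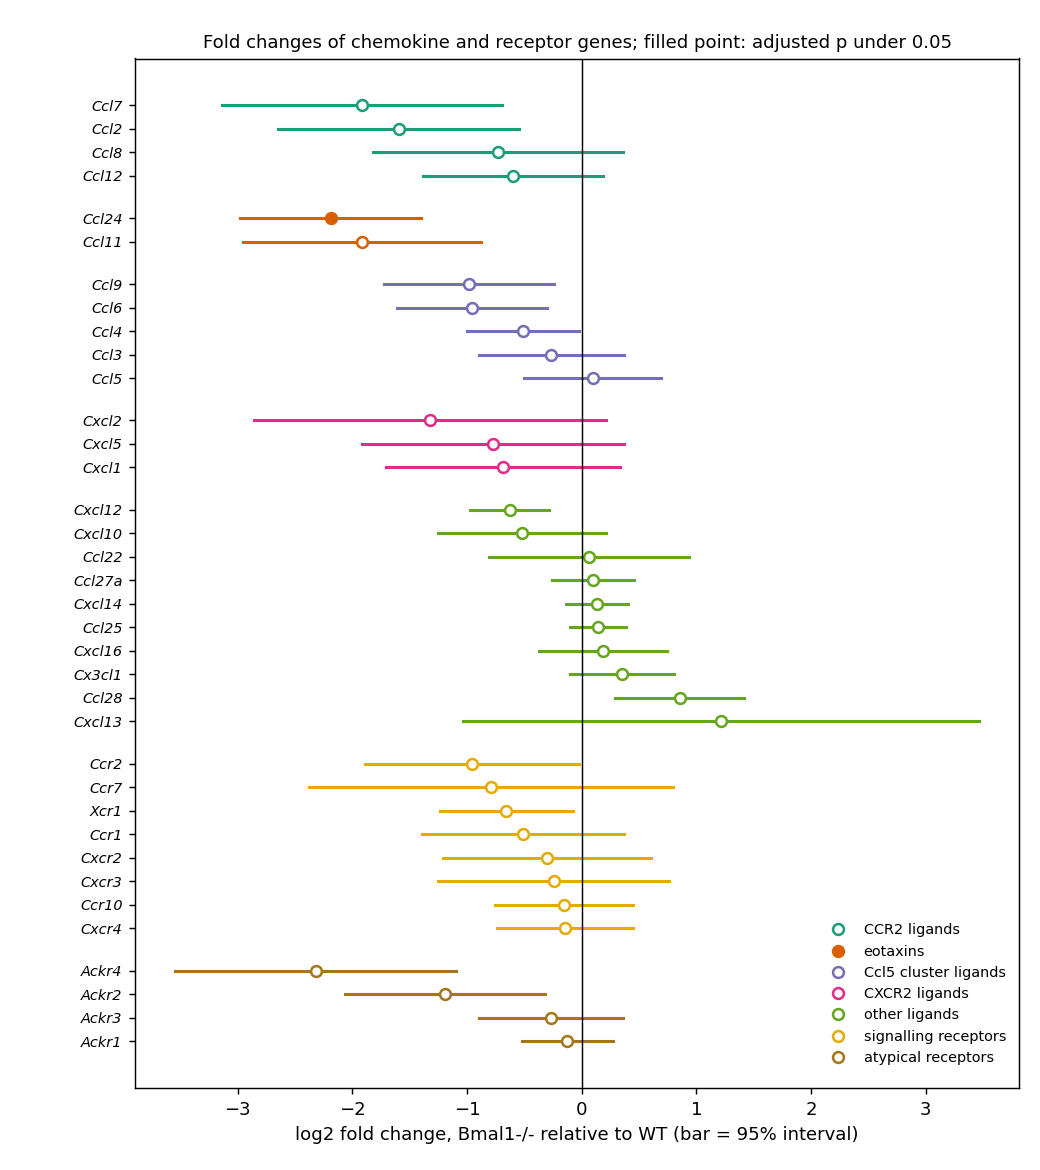
Fitted log2 fold change (mutant-labelled libraries relative to WT, x axis) of 36 of the 37 tested chemokine and chemokine receptor genes (y axis, grouped and coloured by role), where bars are 95% intervals and the filled point has an adjusted p under 0.05. Ccl24 alone is filled, 27 points lie left of 0, and the ligands outside the CC attractants and CXCR2 groups lie around 0 apart from Cxcl12, Cxcl10, Ccl28 and Cxcl13.

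The eotaxins CCL24 and CCL11 attract eosinophils through CCR3. Ccl24 had the lowest log2 fold change among the ligands, and Ccl11 came next, level with Ccl7 at -1.92. Ccl24 (ENSMUSG00000004814, chr5:135569937-135573049, GRCm38) had 6, 7 and 3 counts in mutant-labelled libraries and 24, 27, 28 and 17 in WT. All mutant-labelled libraries lay below all WT libraries, and Ccl24 was 4.56-fold lower (log2 fold change -2.19, 95% interval -2.98 to -1.40, edgeR quasi-likelihood adjusted p = 0.0303). The call rests on low counts, and it was lost in fits without Bmal1-/- replicate 1, 2 or 3 or WT replicate 1 or 2, with edgeR adjusted p of 0.135, 0.0645, 0.112, 0.0892 and 0.0689, while the log2 fold change stayed between -2.38 and -1.93 over all 7 fits that left out a library.

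Ccl11 stood at 1.93, 1.37 and 1.35 CPM in mutant-labelled libraries and at 6.35, 2.72, 9.96 and 4.36 CPM in WT. No mutant-labelled library reached the lowest WT library, but WT itself spread widely. Its log2 fold change was -1.92 with a 95% interval of -2.96 to -0.88, and edgeR's adjusted p was 0.0853 with all libraries and 0.0479 without WT replicate 3. Fibroblasts are a known source of CCL11, and the 14 fibroblast and meningeal markers summed to 545, 2674 and 451 CPM in mutant-labelled libraries and 1365 to 2279 CPM in WT. The part of fibroblasts in the Ccl11 value was not tested. The receptor of the eotaxins, Ccr3, was under the count minimum.

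CCL2, CCL7 and CCL12 recruit monocytes through CCR2, and CCL8 is grouped with them here as a CCR2 ligand by family only. All 4 genes were fitted below WT, with a median log2 fold change of -1.16 (-0.76 without WT replicate 3), and none was called with all libraries. Ccl2 was measured at 11.9, 11.1 and 8.04 CPM in mutant-labelled libraries and 25.3, 17.5, 60.8 and 21.6 CPM in WT. The genotypes did not overlap, and the highest WT value was that of replicate 3. The log2 fold change was -1.60 (95% interval -2.65 to -0.54, edgeR adjusted p = 0.132), and without WT replicate 3 it was -1.05 with an edgeR adjusted p of 0.0281. DESeq2 on all libraries gave an adjusted p of 0.00443. The study, which tested with DESeq2, reported Ccl2 lower and found the same by qPCR.

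Ccl7 followed the same order, at 5.44, 4.43 and 4.31 CPM against 12.9, 9.10, 37.8 and 11.6 CPM in WT. WT replicate 3 was far above the other WT libraries, all of which were above every mutant-labelled library. Its log2 fold change of -1.92 (edgeR adjusted p = 0.123) became -1.24 without that library (edgeR adjusted p = 0.0109). Ccl12 and Ccl8 had log2 fold changes of -0.60 and -0.73 with edgeR adjusted p of 0.324 and 0.366 (-0.29 and -0.47 without WT replicate 3), and their genotypes overlapped. The summed CPM of the 4 genes was 25.1, 23.0 and 17.8 in mutant-labelled libraries and 46.2, 33.1, 115 and 44.2 in WT.

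Ccr2, the receptor of CCL2, CCL7 and CCL12 on inflammatory monocytes, stood at 8.17 to 11.6 CPM in mutant-labelled libraries and 11.7 to 35.6 CPM in WT. Its log2 fold change was -0.96 (edgeR adjusted p = 0.232), or -0.48 without WT replicate 3 (edgeR adjusted p = 0.150). Its genotypes were separated only narrowly. The log2 ratio of Ccl2 to Ccr2 CPM was 0.05 ± 0.08 (SD, n = 3) in mutant-labelled libraries and 0.67 ± 0.23 (SD, n = 4) in WT, so relative to its receptor Ccl2 was also lower. This ratio is higher in every WT library, the lowest WT value being 0.36 and the highest mutant-labelled value 0.14. Among monocyte and macrophage markers, 14 of 17 were fitted lower with a median log2 fold change of -0.40 (-0.09 without WT replicate 3), 0 were called with all libraries, and their sum was 8335 to 9818 CPM against 7158 to 15578 CPM. The part of these cells in the CCR2 ligands was not tested.

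**Figure D2:**
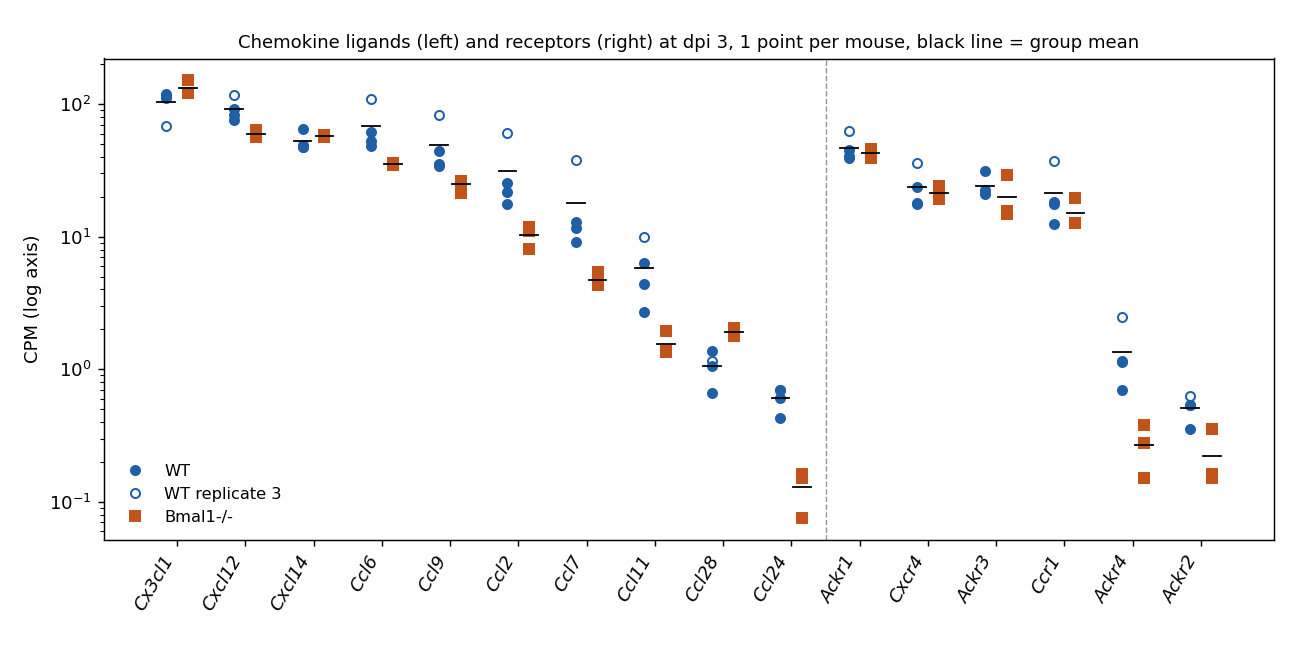
CPM on a log axis of the 16 genes given with values in every library (x axis, ligands left and receptors right of the dashed line), with 1 point per mouse, circles for WT (open for WT replicate 3), squares for mutant-labelled libraries and black lines for group means. For Ccl2, Ccl7, Ccl11, Ccl24 and Ackr4 all squares lie below all circles, whereas for Ackr1, Cxcr4 and Ccr1 they intermix, and the open circle is the highest WT point for most genes.

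The ligands of the Ccl5 cluster are the inflammatory chemokines CCL3, CCL4 and CCL5, which attract macrophages and T cells, and the rodent chemokines CCL6 and CCL9, which act on CCR1. Their median log2 fold change was -0.51, and 4 of these 5 genes were fitted lower with 0 called on all libraries. Ccl6, the CC ligand with the highest counts, was at 35.7, 35.6 and 34.5 CPM in mutant-labelled libraries and 61.8, 53.0, 110 and 48.6 CPM in WT. The mutant-labelled libraries were nearly equal and all below WT, with a log2 fold change of -0.96 (edgeR adjusted p = 0.143), or -0.63 without WT replicate 3 (edgeR adjusted p = 0.0156). Ccl9 showed 26.4, 26.5 and 21.4 CPM against 44.6, 34.4, 82.1 and 35.3 CPM in WT. Again no library labelled Bmal1-/- reached WT, at a log2 fold change of -0.99 (edgeR adjusted p = 0.165), or -0.62 without WT replicate 3 (edgeR adjusted p = 0.0437).

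The classical inflammatory ligands of this group had smaller fold changes. Ccl4 did not overlap between genotypes (4.64 to 5.01 CPM against 5.20 to 9.09 CPM) but had an edgeR adjusted p of 0.229. Ccl3 lay at 7.26 to 10.4 CPM against 7.43 to 14.6 CPM, and Ccl5 at 0.837 to 1.60 CPM against 1.02 to 1.35 CPM, so both overlapped. For Ccl5 the 95% interval of the log2 fold change ran from -0.50 to 0.69.

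CXCL1, CXCL2, CXCL3 and CXCL5 recruit neutrophils through CXCR2. Their transcripts were scarce at dpi 3, with summed CPM of 1.28 to 1.75 in mutant-labelled libraries and 1.54 to 5.99 in WT, and WT replicate 3 supplied the highest value of each. The 3 tested genes had log2 fold changes of -0.69 (Cxcl1), -1.32 (Cxcl2) and -0.78 (Cxcl5), none with an unadjusted p under 0.05, and without WT replicate 3 these were -0.21, -0.48 and -0.38. Cxcl3, which was not tested, had 1, 6 and 5 counts against 20, 7, 34 and 2 counts in WT. The receptor Cxcr2 was fitted at -0.30 with all libraries and at 0.11 without WT replicate 3, so its direction depended on that mouse. Of 12 tested neutrophil markers, 10 were fitted lower, with a median log2 fold change of -0.73 (-0.36 without WT replicate 3), 0 called, and sums of 131 to 181 CPM against 116 to 255 CPM.

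The remaining 11 ligands are mostly homeostatic or membrane-bound, and their summed CPM differed between genotypes by less than the spread between mice (305 ± 10.8, SD, n = 3, in mutant-labelled libraries and 300 ± 8.09, SD, n = 4, in WT). Of the 10 tested, 2 were fitted lower, with a median log2 fold change of 0.14. Cxcl12 encodes the ligand of CXCR4 made by EC, pericytes and meningeal cells. It was at 58.4, 63.7 and 56.2 CPM in mutant-labelled libraries and 82.7, 92.4, 116 and 75.4 CPM in WT. The genotypes were well separated and the log2 fold change was -0.63 (95% interval -0.97 to -0.28, edgeR adjusted p = 0.0888, and 0.0281 without WT replicate 3).

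Endothelial markers lay on the same side as Cxcl12, with 12 of 14 fitted lower, 1 called (Cdh5), a median log2 fold change of -0.52 (-0.26 without WT replicate 3) and sums of 639 to 713 CPM against 737 to 1128 CPM. Their part in the Cxcl12 value was not tested. Cx3cl1, the neuronal fractalkine that signals to microglia and monocytes through CX3CR1, was the ligand with the highest CPM. Its CPM was 122, 122 and 151 in mutant-labelled libraries and 113, 120, 68.2 and 111 in WT. The mutant-labelled libraries lay above WT by a small margin except for WT replicate 3, which was far below, and the log2 fold change of 0.35 (edgeR adjusted p = 0.317) became 0.20 without it. All 13 neuron markers were fitted higher, with a median log2 fold change of 0.55 (0.33 without WT replicate 3), 0 called, and sums of 6602 to 7813 CPM against 2769 to 6463 CPM, and their part in the Cx3cl1 value was not tested. Cx3cr1 itself, whose symbol the naming rule leaves out, was at 203 to 227 CPM and 191 to 261 CPM, with a log2 fold change of -0.03.

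Cxcl14, a chemokine expressed in epithelia and brain, was at 57.5, 56.8 and 58.1 CPM in mutant-labelled libraries and at 47.4, 49.4, 47.8 and 65.0 CPM in WT. WT replicate 4 alone exceeded the mutant-labelled libraries, and the 95% interval of the log2 fold change was -0.14 to 0.41. Ccl28, a mucosal chemokine for CCR10 and CCR3, was the gene with the lowest unadjusted p among those fitted higher. Its CPM was 1.93, 1.79 and 2.06 in mutant-labelled libraries and 1.38, 0.668, 1.15 and 1.06 in WT. The genotypes did not overlap, at a log2 fold change of 0.85 (95% interval 0.29 to 1.42) that missed the threshold in edgeR (adjusted p = 0.132) and passed it in DESeq2 (adjusted p = 0.0275).

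Most other homeostatic and lymphoid ligands overlapped between genotypes. Cxcl16, the membrane-bound ligand of CXCR6, stood at 23.7 to 38.6 CPM against 20.99 to 38.2 CPM, and Ccl25, a thymic and gut chemokine, at 7.50 to 8.78 CPM against 6.69 to 7.74 CPM. The interferon-induced Cxcl10 stood at 3.48 to 5.69 CPM against 3.52 to 8.62 CPM (log2 fold change -0.52, edgeR adjusted p = 0.344). Ccl27a, a skin chemokine, was at 8.43 to 10.4 CPM against 6.96 to 10.2 CPM. The lymphoid and dendritic cell ligands Ccl22, Ccl19 and Cxcl13 were all under 1 CPM in every library. Ccl19, which was not tested, reached 0.229 CPM in mutant-labelled libraries and started at 0.230 CPM in WT, so its groups met almost exactly, and the 95% interval of Cxcl13 ran from -1.03 to 3.46.

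Levels can be compared between genes per length of exon (RPKM, counts per kilobase of annotated exon scaled to library size). The ligands with the highest mean RPKM over the 7 libraries were Ccl6 (30.2), Cxcl14 (29.9), Cx3cl1 (29.3), Ccl2 (19.6) and Ccl12 (15.3). Neighbours in this order did not differ beyond their spread, since Ccl6 ran from 19.2 to 61.3 RPKM, Cxcl14 from 26.0 to 35.6, Cx3cl1 from 17.3 to 38.4, Ccl2 from 7.07 to 53.4 and Ccl12 from 9.40 to 28.1. By group mean the first ligand was Cx3cl1 in mutant-labelled libraries (33.5 RPKM) and Ccl6 in WT (38.1 RPKM), but Cxcl14 exceeded Cx3cl1 in 2 of 3 mutant-labelled libraries, and the Ccl6 mean includes 61.3 RPKM in WT replicate 3. As a share of the summed RPKM of the 26 ligands, Ccl2 took 4.36% to 6.04% in mutant-labelled libraries and 8.22% to 15.5% in WT, while Cx3cl1 took 17.9% to 23.7% and 5.02% to 16.3%. A share also depends on the levels of the other ligands, and the log2 fold change of Cx3cl1 itself was 0.35 (edgeR adjusted p = 0.317). Among receptors the order of mean RPKM was Ackr1 (32.2), Cxcr4 (12.6), Ackr3 (6.66) and Ccr1 (6.58). In every library Ackr1 exceeded Cxcr4 and Cxcr4 exceeded Ackr3, whereas Ackr3 and Ccr1 changed places.

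All 9 signalling receptors were fitted lower, with a median log2 fold change of -0.51, but without WT replicate 3 the median was -0.10 and 6 of 9 were lower. None was called in either fit. Ccr1, a myeloid receptor, was at 19.6, 12.6 and 12.8 CPM in mutant-labelled libraries against 18.3, 12.4, 37.3 and 17.5 CPM in WT. Apart from WT replicate 3 the groups were intermixed, at a log2 fold change of -0.51 with all libraries and -0.10 without it.

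Cxcr4, the receptor of CXCL12, was at 24.1, 21.2 and 19.2 CPM in mutant-labelled libraries and 18.1, 17.6, 35.7 and 23.6 CPM in WT. Its direction rested on WT replicate 3, with a log2 fold change of -0.14 that became 0.12 without that library. The log2 ratio of Cxcl12 to Cxcr4 CPM was 1.47 ± 0.17 (SD, n = 3) in mutant-labelled libraries and 1.99 ± 0.36 (SD, n = 4) in WT. It did not overlap, but only narrowly (at most 1.59 against at least 1.68). The log2 ratios of Ccl7 and Ccl11 to Ccl2 overlapped between genotypes. They ran from -1.32 to -0.90 and -3.02 to -2.58 in mutant-labelled libraries, and -0.97 to -0.69 and -2.69 to -1.99 in WT. How often ratios of other gene pairs do not overlap was not computed. Receptors of lymphocytes and dendritic cells were near the count minimum. Xcr1, a receptor of cross-presenting dendritic cells, was at 0.228 to 0.381 CPM against 0.437 to 0.574 CPM without overlap (log2 fold change -0.66, edgeR adjusted p = 0.204), and Ccr7, Ccr10 and Cxcr3 overlapped, with log2 fold changes of -0.79, -0.16 and -0.24, or -0.22, -0.05 and 0.09 without WT replicate 3.

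Markers of lymphocytes were scarce. The 12 T and NK cell markers summed to 1.57 to 2.52 CPM in mutant-labelled libraries and 2.53 to 3.47 CPM in WT (3 tested, 3 lower, median log2 fold change -0.79, 0 called), the 6 B cell markers to 2.59 to 2.90 CPM and 2.88 to 4.64 CPM (5 tested, 4 lower, median -0.33, 0 called), and the 8 dendritic cell markers to 41.2 to 43.2 CPM and 32.9 to 51.5 CPM (7 lower, median -0.57, 0 called). For the 11 microglia markers the sums were 1227 to 1471 CPM and 1362 to 1746 CPM (9 lower, median log2 fold change -0.17, 0 called). Astrocyte markers summed to 16589 to 19063 CPM and 11218 to 15819 CPM, with no overlap, and 5 of 11 were fitted lower and 6 higher (median 0.02, 0 called), while 3 of 10 oligodendrocyte markers were fitted lower (median 0.05, 0 called). No marker in these lists was without a count in every library, and their part in the receptor values was not tested.

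The 4 atypical receptors were all fitted lower, with a median log2 fold change of -0.73 (-0.71 without WT replicate 3, where 3 of 4 were lower), and the 2 scarce genes Ackr4 and Ackr2 lay further from 0 than the 2 abundant genes Ackr1 and Ackr3. Ackr4, which removes CCL19, CCL21 and CCL25, was at 0.152, 0.279 and 0.381 CPM in mutant-labelled libraries and 1.15, 0.694, 2.47 and 1.13 CPM in WT. The groups did not overlap and the log2 fold change of -2.32 (95% interval -3.54 to -1.09) was the lowest of the 37 genes, with an edgeR adjusted p of 0.0807, or 0.0374 without WT replicate 3. Exons of Acad11 overlap Ackr4 on the other strand, and the strand setting of the counting is not given in the sources used here. Ackr2, a scavenger of inflammatory CC chemokines, was at 0.356, 0.162 and 0.152 CPM against 0.536, 0.540, 0.624 and 0.353 CPM. Only Bmal1-/- replicate 1 reached the WT range, at a log2 fold change of -1.19 (edgeR adjusted p = 0.157).

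Ackr1, the Duffy antigen of venular EC and red cells, had the highest CPM of the 13 receptors under the naming rule, at 44.2, 39.2 and 45.7 CPM in mutant-labelled libraries and 40.9, 45.0, 62.8 and 39.0 CPM in WT. The groups overlapped, and its log2 fold change of -0.13 became 0.05 without WT replicate 3. Part of its sequence (16.9% of 75-base runs) is shared with Cadm3, whose exons overlap it on the same strand. Ackr3, which takes up CXCL12, was at 15.8, 29.3 and 14.8 CPM against 21.3, 31.4, 21.02 and 22.5 CPM. Within each genotype the highest value was that of replicate 2, and the log2 fold change was -0.27 (95% interval -0.90 to 0.36). The part of fibroblasts in the Ackr3 and Ccl11 values was not tested.

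**Figure D3:**
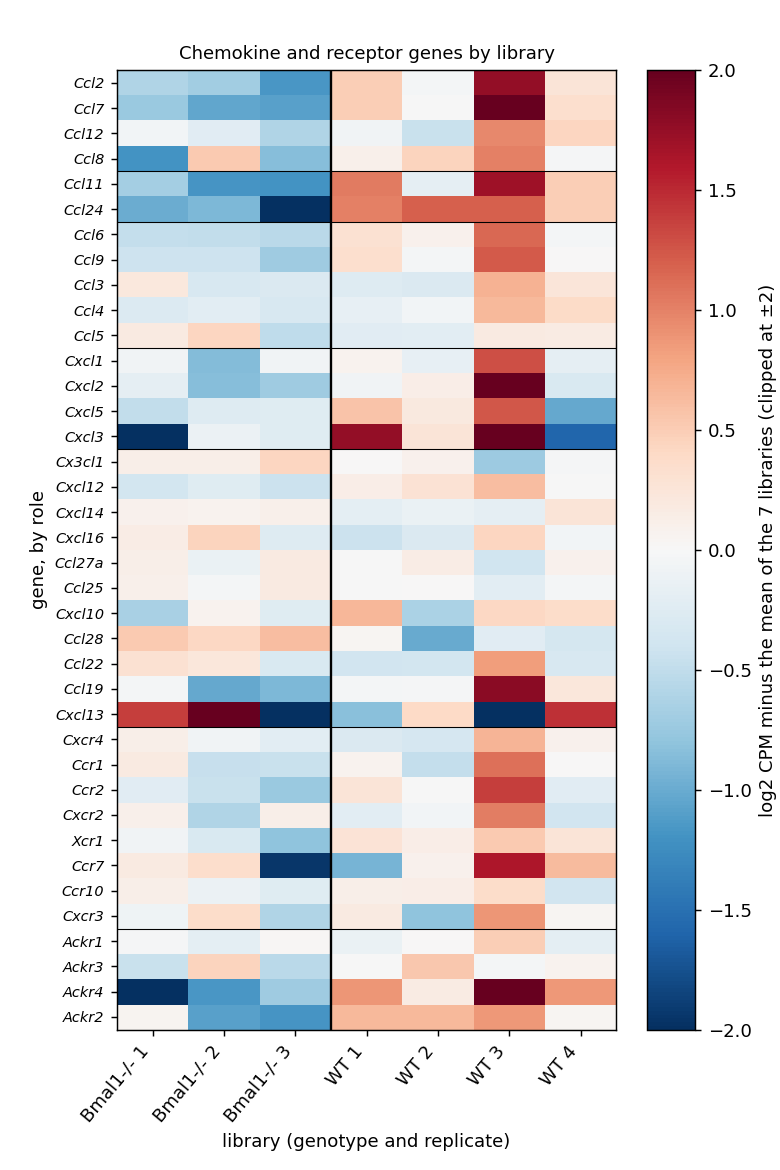
Log2 CPM of 38 of the 39 chemokine and chemokine receptor genes (rows, by role) in each library (columns, mutant-labelled libraries left and WT right of the line), shown as the difference from the mean of the 7 libraries and clipped at 2 in either direction. The column of WT replicate 3 holds the highest value for 28 of them, and the top block of CCR2 ligands and eotaxins is below the mean in the mutant-labelled libraries except for Ccl8 in Bmal1-/- replicate 2.

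Many of these genes sit in tandem clusters that arose by duplication. The 5 monocyte attractant and eotaxin genes Ccl2, Ccl7, Ccl11, Ccl12 and Ccl8 lie within 81.2 kb (chr11:82035571-82116799, GRCm38), and all were fitted lower, at log2 fold changes of -1.92 to -0.60. The neighbouring cluster with Ccl5, Ccl9, Ccl6, Ccl3 and Ccl4 (chr11:83525778-83664683) held 4 of 5 lower. The CXCR2 ligand cluster (chr5:90759360-90905938) had 3 of 3 tested lower, and the receptor genes Xcr1, Ccr1 and Ccr2 (chr9:123852315-124113557) 3 of 3, between -0.96 and -0.51. Genes in a cluster are related in sequence, but shared 75-base runs were few for the clustered genes, 4.57% of Cxcl2 and 1.16% of Ccr2 at the most in their clusters. Outside these clusters reads of Ccl27a and Ccl19 may be split with near-identical copies (33.3% and 45.3% of runs shared), and exons on the other strand overlap Ccl25, Ccl27a, Cxcl10 and Cxcl16, so these values are uncertain.

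BMAL1 binds E-boxes with CLOCK, and inflammatory chemokine genes are classical targets of NF-kappaB and AP-1, so the annotated promoters were searched for these motifs on both strands (250 bases before to 50 after each start in RefSeq, GRCm38.p6). Of the 39 genes 28 had an entry, with 31 promoters in all. A chemokine gene was counted if any of its promoters held the motif, whereas the shares given beside it are per promoter. The E-box CACGTG occurred for Cxcl3 and Xcr1, 2 of 28 genes, and in 7.15% of all 32851 promoters. AP-1 (TGANTCA) occurred for 4 genes (7.81% of all promoters) and the NF-kappaB consensus for 8 (8.46%), Ackr2, Ccl27a, Ccl9, Ccr1, Cxcl1, Cxcl10, Cxcl2 and Cxcl3. The upstream windows of Ccl9 and Ackr2 are printed because they hold the NF-kappaB consensus within the 10 genes of lowest unadjusted p. Both run 5′ to 3′ on the strand of the gene and end at the base before its start, with motifs in capitals.
Ccl9 (chr11:83578637-83578886, minus strand, AP-1 at 53 to 47 and NF-kappaB at 35 to 26 bases before the start): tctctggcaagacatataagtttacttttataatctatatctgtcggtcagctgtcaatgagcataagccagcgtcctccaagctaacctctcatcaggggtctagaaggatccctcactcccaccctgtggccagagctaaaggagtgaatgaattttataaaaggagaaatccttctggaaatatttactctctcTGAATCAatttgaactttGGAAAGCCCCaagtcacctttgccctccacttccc
Ackr2 (chr9:121898105-121898354, plus strand, NF-kappaB at 224 to 215 and 64 to 55 bases before the start): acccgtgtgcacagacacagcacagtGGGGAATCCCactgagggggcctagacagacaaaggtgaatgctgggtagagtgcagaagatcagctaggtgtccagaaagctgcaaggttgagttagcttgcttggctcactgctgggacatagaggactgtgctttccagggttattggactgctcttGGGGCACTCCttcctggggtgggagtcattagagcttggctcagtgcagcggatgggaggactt
A match describes these letters only, and binding was not measured. For the genes of lowest p without an entry, Ccl24, Ccl11, Ccl7 and Ccl2, no promoter was searched.

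Components that act downstream and upstream of these genes had list medians closer to 0 than the chemokine genes, though single genes had log2 fold changes further out (Elane -1.16, Rgs18 -0.94 and Dpp4 -0.80, named after their values were seen). In each list most genes were still fitted lower, as among the chemokine genes, where 51.1% of all genes were. Of 36 genes that carry the signal of chemokine receptors, 27 were fitted lower with a median log2 fold change of -0.16, and 0 were called. Of 15 genes for NF-kappaB subunits, inhibitors and kinases, 11 were fitted lower with a median of -0.06, and 0 were called. Proteases that cut or shed chemokines gave 8 of 10 tested lower, a median of -0.30 and 0 called, and Adam10 and Adam17, which shed CX3CL1 and CXCL16, had log2 fold changes of -0.19 and -0.09. Below an unadjusted p of 0.05, these 3 lists held 7 genes lower and 4 higher of 61 tested, 11.5% and 6.56%, against 12.2% and 8.64% of all genes.

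**Figure D4:**
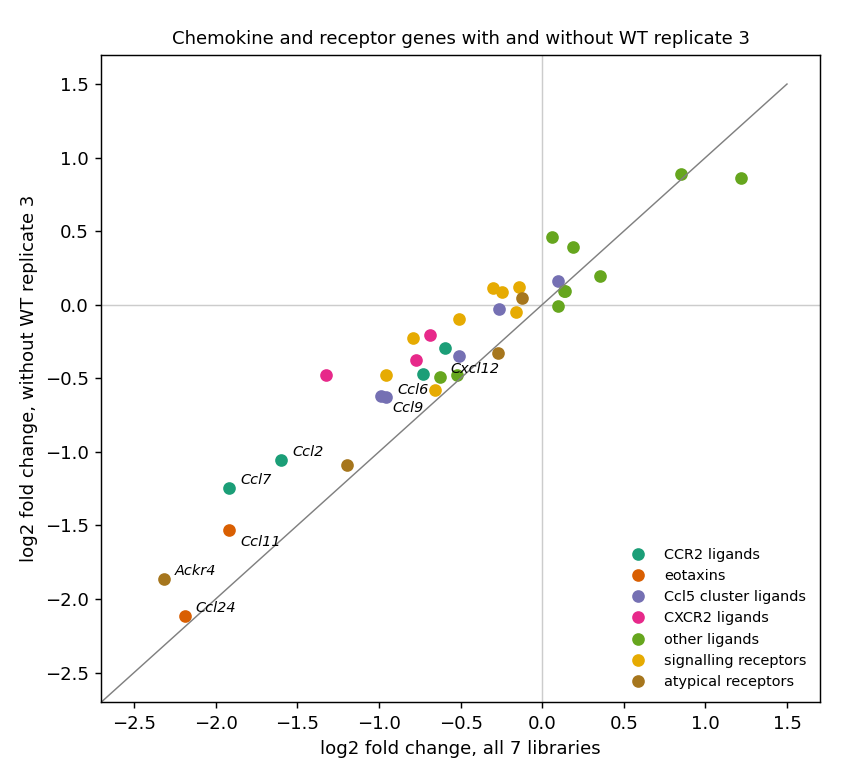
Fitted log2 fold change of 36 of the 37 tested genes with all 7 libraries (x axis) and without WT replicate 3 (y axis), coloured by role, with the line of equal values and names for genes with an adjusted p under 0.05 without that library. The 8 named genes stay below 0 on both axes while most points lie above the line, and 4 receptors near the origin, Cxcr2, Cxcr3, Cxcr4 and Ackr1, cross 0, as does Ccl27a by a small margin.

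The other 20 genes by symbol were under the count minimum, 3 of them without any count (Ccl26, Ccl21b and Ccl27b). The rest were Ccr9, Ccl17, Ccr3, Cxcl9, Cxcr6, Cxcr5, Ccl21a, Cxcl17, Ccr6, Cxcr1, Ccr1l1, Ccr4, Xcl1, Ccl1, Ccl20, Cxcl15 and Ccr8, with mean counts under 10, and they were not compared between genotypes.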

How the data were processed

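Contused spinal cord of 3 mice labelled Bmal1-/- and 4 WT mice was sequenced, 1 library per mouse. Stranded poly-A libraries were aligned by the authors with Tophat 2 to GRCm38 and counted per gene with HTSeq 0.10.0, after FastQC 0.10.1. What the authors deposited are counts as HTSeq gave them, not normalized. Annotation release and strand setting are not given in the sources used here. Counts were filtered with filterByExpr (15743 genes left) and normalized by TMM. They were tested for genotype with edgeR's quasi-likelihood test and Benjamini-Hochberg adjustment at 0.05 (edgeR 4.0.16, limma 3.58.1, R 4.3.3). DESeq2, the test that the study used, was run as an alternative (version 1.42.0). The scripts were tested on simulated data. With 38529644 to 44096737 counts per library and a common dispersion of 0.0342, spread between mice limits precision for all but the scarcest genes. Other alternatives were normalization, filters, limma-voom, sex, a replicate block and each library left out. Positions and sequences came from GENCODE M21 and RefSeq (GRCm38.p6). No label says that the mice shared a litter or batch.

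Members were chosen by symbol and mean count. Values in every library are given for called genes, the 10 lowest unadjusted p, the 5 ligands and 5 receptors of highest CPM and Ccl2. The members and the 17 gene lists were chosen with earlier results of these data known. The values of 1 receptor are not reported here, though it counts in the totals.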

Additional observations from a re-analysis of the deposited data

Results flagged for a closer look

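In the WT group of 4 mice, 9 of 39 genes had a library whose gap to the nearest of the others, divided by the range, passed Dixon's 95% critical value, and 7 of these were WT replicate 3. Chance flags about 1 in 20 groups, and the 9 genes share the same mice. WT replicate 3 was high for Ccl7 (37.8 CPM against 9.10 to 12.9 CPM in the other WT libraries), Cxcr2 (3.00 against 1.13 to 1.41), Cxcl1 (2.80 against 1.01 to 1.20), Cxcl2 (1.498 against 0.303 to 0.411), Ccl22 (0.949 against 0.408 to 0.429) and Ccl19 (0.824 against 0.230 to 0.277), and low for Ccl25 (6.69 against 7.56 to 7.74). WT replicate 4 was high for Cxcl14 (65.0 against 47.4 to 49.4) and WT replicate 2 for Ackr3 (31.4 against 21.02 to 22.5).

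Of 10 sums tested in WT, 5 stood out, all by WT replicate 3. The sum was 911 CPM for all 39 genes, 643 CPM for ligands, 268 CPM for receptors, 115 CPM for CCR2 ligands and 217 CPM for ligands of the Ccl5 cluster, against at most 624, 468, 162, 46.2 and 120 CPM in the other WT libraries.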

How the results depend on the processing

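With all libraries 1 chemokine gene was called lower and 0 higher, beside 1.57% of all genes called. DESeq2 called 8 lower and 1 higher, beside 5.63% of all genes lower and 3.51% higher. Over fits that left out a library, 0 to 8 were called lower and 0 higher in each. The count lower was 0 without Bmal1-/- replicate 1, 2 or 3 or WT replicate 1 or 2. It was 1 without WT replicate 4 and 8 without WT replicate 3, where 4.66% of all genes were called. Ccl24 stayed the single call under RLE and upper-quartile factors, limma-voom, both other filters and the sex covariate. In the 4 lists of related genes, with 0 called, DESeq2 called 3 lower (Prkcd, Ppbp, Cmklr1) and 2 higher (Mmp14, Rgs2), beside the DESeq2 shares of all genes just given. Fits without a library called 0 to 3 higher (Mmp14, Nfkbia and Rgs2 without WT replicate 3). These genes are named here after their values were seen. The median log2 fold change of the 37 genes ran from -0.71 (without WT replicate 2) to -0.29 (without WT replicate 3). Over fits without a library the log2 fold change changed sign for Ackr1 (-0.20 to 0.047), Ccl27a (-0.0085 to 0.19), Cxcr2 (-0.46 to 0.11), Cxcr3 (-0.51 to 0.086), Cxcr4 (-0.27 to 0.12), Ccl5 (-0.11 to 0.31) and Ccl22 (-0.064 to 0.46), none of them called. Same-numbered mice did not deviate together (correlations of -0.17, 0.18 and -0.29), but these values cannot show whether any mice shared a litter or batch. Replicates 1 and 2 were female and replicate 3 male in both genotypes, so the number also carries sex. With the number as a replicate block 0 chemokine genes were called, and Ccl24 had a log2 fold change of -2.34 (edgeR adjusted p = 0.257). In that fit WT replicate 4 has no partner and adds nothing to the genotype estimate. Differences among genes under about 1 CPM are limited by depth, and those above it by the spread between mice.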

Other observations

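Several chemoattractants carry symbols outside the naming rule, and 7 of 8 such genes were fitted lower, with 0 called. Pf4 and Ppbp, platelet chemokines of the CXC class, stood at 11.4 to 18.5 CPM and 0.102 to 0.279 CPM in the libraries labelled Bmal1-/- and at 17.2 to 62.4 CPM and 0.308 to 1.67 CPM in WT. Their log2 fold changes were -1.07 (edgeR adjusted p = 0.233) and -2.17 (edgeR adjusted p = 0.176), and -0.57 and -1.41 without WT replicate 3. The chemerin receptor Cmklr1 was at 22.1 to 26.9 CPM against 28.8 to 46.8 CPM, and its ligand Rarres2 at 11.01 to 15.7 CPM against 16.2 to 20.9 CPM. Both pairs of ranges were apart, at log2 fold changes of -0.57 and -0.46 (edgeR adjusted p of 0.133 and 0.171). Gpr35, a receptor on myeloid cells, lay at 10.7 to 12.1 CPM against 12.2 to 20.5 CPM.

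Ccrl2, an atypical receptor that binds chemerin, was the exception. Its CPM was 3.71, 4.08 and 4.04 in the libraries labelled Bmal1-/- and 2.75, 3.47, 3.00 and 2.87 in WT, without overlap, at a log2 fold change of 0.38 (edgeR adjusted p = 0.179) with and without WT replicate 3. Mif and Cklf had log2 fold changes of -0.14 and -0.18.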
